A study of Drosophila melanogaster with 3 samples.

Results

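The regions described here are short ORC2 peaks that stood alone on the autosomes of a Drosophila melanogaster cell line. They were selected on measured values of the deposited peak list of the series. A peak was taken if its midpoint lay on arm 2L (up to 21 Mb), 3L (up to 22.5 Mb) or 3R (from 2.05 Mb), if it was under 400 bp wide and if no other midpoint of the list lay within 20000 bp. The rule kept 307 of the 4477 peaks of the list, which are 11.7% of the 2634 peaks inside those bounds and 13.4% of the 2296 narrow ones. Positions follow FlyBase release 5, the genome build that the file headers name.

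ORC2 belongs to the origin recognition complex, which binds chromatin at future origins of DNA replication. Together with Cdc6 and Cdt1 it loads the MCM helicase there before S phase. In flies and other animals it recognises no fixed DNA sequence, and it is known to favour accessible chromatin, including the starts of active genes. Many of the origins it licenses stay unused in a given cell cycle.

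ORC2 was mapped by chromatin immunoprecipitation followed by sequencing (ChIP-seq) in ML-DmBG3-c2 (BG3) cells, a line derived from the central nervous system of larvae of the third instar and grown asynchronously. The line has the genotype y v f mal, which are mutations in yellow, vermilion, forked and maroon-like, and its sex is labelled as unknown. Both ChIP libraries came from untreated cells of this 1 line and used a crude rabbit polyclonal serum raised against the whole protein. They are called replicate 1 and replicate 2, and an input DNA library, not used here, is the only other sample. The sample titles give the ChIP libraries different extraction numbers. The labels do not say whether the ChIP libraries are from separate cultures, and what differs between them may be technical.

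Replicate 1 had 8494 peaks and replicate 2 had 5905. Each of the 307 isolated intervals spanned the overlapping peaks of both replicates from edge to edge, with a score equal to the mean of the replicate scores within 0.0001. In 306 of them 1 peak of each replicate was joined, and in 1 a replicate 1 peak was joined with 2 replicate 2 peaks. The score was set by the authors for each peak, and the files do not name its quantity. Depth is unknown, because no read counts stand behind the lists. Width, spacing, score and overlap come from the same libraries as the rule, so they are given as descriptions with no test. The genes and sequence at these sites were not analysed here, because no genome of release 5 was used.

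Isolation held for peaks found in both libraries, and less often once peaks of 1 library were counted too. Many of the 307 sites had a peak of only 1 replicate nearby (a single-replicate peak, which shares no base with a peak of the other library). When these were counted as neighbours, 93 of the 307 (30.3%) still had no other midpoint within 20 kb. Within the replicate 1 list alone, 114 of the sites (37.1%) stayed 20 kb from any other peak, and within the shorter replicate 2 list 215 did (70.0%). The median distance to the nearest other peak was 11.7 kb in replicate 1 and 25.4 kb in replicate 2.

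Isolated narrow peaks were spread along all 3 arms. There were 94 on 2L, 96 on 3L and 117 on 3R, or 4.48, 4.27 and 4.53 per Mb of the span searched. As a share of narrow peaks they made up 14.7% on 2L (95% exact interval 12.1 to 17.7), 12.1% on 3L (9.89 to 14.5) and 13.6% on 3R (11.4 to 16.0). These intervals overlap; they hold counting error alone and take each peak as independent. By consecutive stretches of up to 5 Mb the density of isolated peaks was lowest at the start of 3L, at 2.82 per Mb (14 peaks). It was highest, at 6 per Mb, at the inner ends of 2L (20 to 21 Mb, 6 peaks) and 3L (20 to 22.5 Mb, 15 peaks). Both of these stretches are shorter than 5 Mb, and the highest density over a full 5 Mb was 5.6 per Mb (2L, 10 to 15 Mb).

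The share of peaks that were isolated also varied along the arms. The first 5 Mb of 3L and its 15 to 20 Mb stretch had the most peaks of the 16 stretches, 244 and 246, of which 5.74% and 7.32% were isolated and narrow. Between 10 and 15 Mb on 2L, where 146 peaks lay, the share was 19.2%, the highest of any stretch. The share did not follow the number of peaks throughout, since it was 12.8% of 211 peaks between 5 and 10 Mb on 2L and 10.7% of 150 between 20 and 25 Mb on 3R. A rule on spacing takes a smaller share where peaks are dense, so these shares only map where lone sites were left.

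The median distance from an isolated narrow peak to the nearest other midpoint was 32.0 kb (quartiles 25.3 and 49.1 kb), and on the other side it was 69.8 kb (43.9 and 122 kb). The other narrow peaks of these arms, 1989 in all, had a median of 2.64 kb. For 72 isolated peaks the nearest neighbour was at least 50 kb away, and for 10 it was at least 100 kb away. In 2 cases the peak was the outermost of its arm in the list. These were 2L at 5591 to 5868, with a score of 4.83 in replicate 1 and 5.97 in replicate 2, and 3L at 131775 to 131946, with 3.77 and 3.69.

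The median distance of isolated peaks to the nearest midpoint was smallest on 2L, at 29147 bp, against 31400 bp on 3L and 35977.5 bp on 3R. Even so, the 5 most isolated narrow peaks all lay on 2L. The first, at 10767726 to 10768070, had neighbours 200 kb and 223 kb away, and scored 2.82 in replicate 1 and 3.88 in replicate 2. The next, at 4019906 to 4020014, had neighbours 183 kb and 313 kb away and scored 2.87 and 7.04. Both sites were below the median of the isolated peaks in replicate 1 and above it in replicate 2. At 15264576 to 15264793 the nearest midpoint was 151 kb away, and the scores were 4.32 and 3.45. At 14851809 to 14851933 it was 144 kb away, with 4.82 and 4.95. This was the only one of the 5 with no single-replicate peak within 10 kb. The fifth, at 8950072 to 8950162, lay 125 kb from its neighbour on one side and 381 kb on the other. It scored 2.67 and 3.21, and its replicate 2 peak was 1 bp wide.

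The peaks next to an isolated one in the list were of several kinds. Of the 307, 168 were next to another isolated narrow peak in the list, in unbroken runs, and 139 stood between peaks of other kinds. The spacing rule favours such runs, since a neighbour of an isolated peak already has a gap of 20 kb or more on one side. The nearest other peak was itself an isolated narrow peak for 93, a less isolated narrow peak for 179 and a peak of 400 bp or wider for 35. The last share, 11.4%, was near the 12.8% that wide peaks make up inside the bounds. The longest run held 6 isolated peaks between 14047219 and 14334231 on 2L, with scores from 2.44 to 4.10. It was followed by 5 between 15052190 and 15394968 on 3R, with scores from 2.52 to 7.47.

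Wide peaks were a slightly smaller share among isolated sites than elsewhere. Without the limit on width 340 peaks met the spacing rule, and 33 of them (9.71%) were 400 bp or wider, against 13.3% of the peaks inside the bounds with a neighbour within 20 kb. The peaks just inside it, all 398 bp wide, were 2L at 2037562 to 2037959, 2L at 14047219 to 14047616 and 3L at 4138993 to 4139390. Their scores in replicates 1 and 2 were 3.59 and 3.16, 2.78 and 2.75, and 2.79 and 2.41. Just outside it lay 2L at 14355035 to 14355436 (402 bp, 2.44 and 3.90), 3R at 9857467 to 9857869 (403 bp, 4.36 and 4.19) and 3R at 22086930 to 22087334 (405 bp, 3.30 and 3.02). The peak of 403 bp scored above all 3 of those just inside in both replicates.

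The limit of 20 kb can be described in the same way. Just inside it were 3L at 1668657 to 1668854, whose nearest midpoint was 20094 bp away, and the neighbours 3R at 27494892 to 27494998 and 3R at 27515025 to 27515379, which were 20257 bp apart. They scored 3.59 and 3.58, 3.65 and 4.07, and 2.47 and 2.20 in replicates 1 and 2. Just outside were 3R at 16676204 to 16676320 (19993.5 bp, scores 3.09 and 3.51), 2L at 18859241 to 18859433 (19909 bp, 4.88 and 10.8) and 3R at 24840328 to 24840448 (19905.5 bp, 7.94 and 9.09). The last 2 scored above all 3 peaks just inside.

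The isolated intervals were short, with a median width of 165 bp (quartiles 120 and 232 bp). The replicate 1 peaks in them had a median of 150 bp and the replicate 2 peaks 117 bp (mean of the medians 134 ± 23.3 bp, SD, n = 2). Replicate 1 gave the wider peak at 233 of the 307 sites, or 75.9%, and at 73.9% of the other narrow peaks. A called width also depends on the caller's threshold, which is unknown here, and is no measure of how far ORC2 extends on the DNA. The narrowest interval was 3L at 21336516 to 21336537, 22 bp wide, scoring 2.78 in replicate 1 and 2.70 in replicate 2. The next were 3R at 18879278 to 18879303 (26 bp wide, 3.33 and 4.28) and 3L at 4170659 to 4170699 (41 bp wide, 2.23 and 2.43). By series-list score the first (2.74) and the second (3.81) lay between the quartiles of the isolated peaks, 2.56 and 4.01. The third, at 2.33, lay below the lower quartile. Replicate peaks of 30 bp or less were found at 26 isolated sites in replicate 2 and at 8 in replicate 1, and 2 of the replicate 2 peaks were 1 bp wide.

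**Figure D1:**
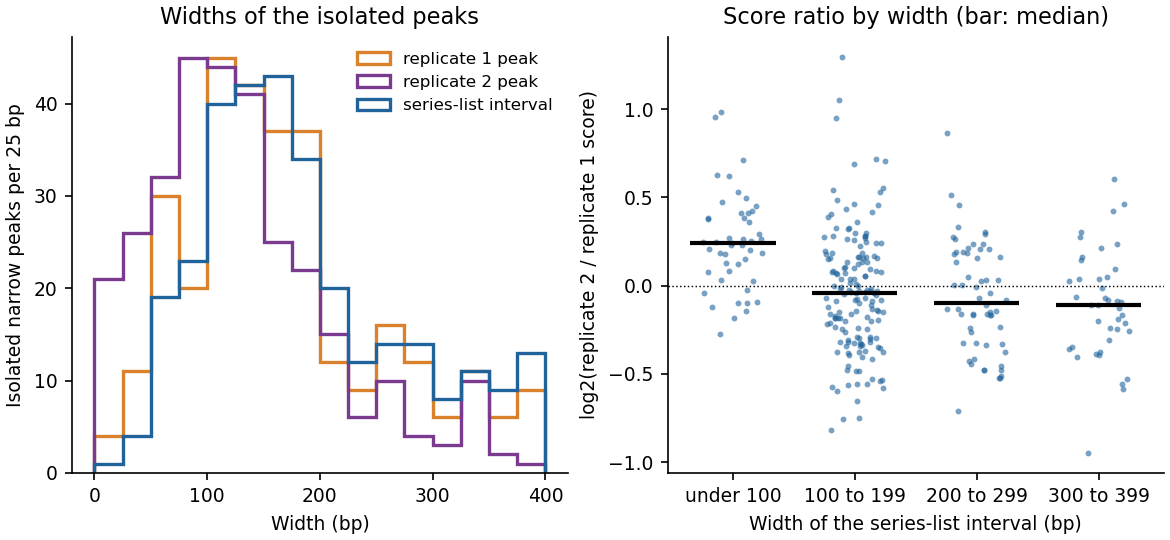
Left, the number of isolated narrow peaks (n = 307) in bins of 25 bp of width, for the replicate 1 peak, the replicate 2 peak and the series-list interval of each site; replicate 2 peaks had a median of 117 bp and replicate 1 peaks 150 bp. Right, the log2 ratio of the replicate 2 to the replicate 1 score, 1 point a peak, by width of the interval; the median (bar) was 0.24 under 100 bp and -0.11 from 300 bp.

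In score the isolated narrow peaks were close to the rest. Their median score in the series list was 3.18 (quartiles 2.56 and 4.01, range 1.71 to 14.3), and that of the other narrow peaks was 3.07 (2.50 and 3.84). In replicate 1 the medians were 3.18 for isolated and 3.09 for other narrow peaks, and in replicate 2 they were 3.16 and 3.02. The mean of the replicate medians was 3.17 ± 0.0145 for isolated peaks and 3.06 ± 0.0499 for the others (SD, n = 2). The difference in the series list was 0.107, and the SD of that difference between the replicates was 0.0354 (n = 2). This SD comes from the same peaks in both libraries, so it does not measure variation over the choice of peaks. The difference was small beside the spread among isolated peaks (SD 1.67). The median over the whole list was 3.17.

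The share of high scores among isolated peaks was near that of all narrow peaks. Of the 307, 38 (12.4%, 95% exact interval 8.91 to 16.6) had a score among the highest 10% of all narrow peaks of these arms, which are those of at least 4.86, against 9.65% (8.39 to 11) of the other narrow peaks. The background of 10% is set by the cut-off itself and includes the isolated peaks. The intervals hold counting error alone and take each peak as independent, so they are no test against it. Narrow peaks with a neighbour 10 to 20 kb away had a share of 16.9% (12.8 to 21.6), those from 20 to 50 kb 11.9% (8.07 to 16.8) and those from 50 kb 13.9% (6.87 to 24.1). By the scores of 1 library, the share from 50 kb was 8.33% in replicate 1 and 16.7% in replicate 2. With neighbours closer than 10 kb the share lay between 7.8% and 8.79%.

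The median score did not climb steadily with distance. It was 3.10 for narrow peaks with a neighbour under 1 kb away, 2.99 from 1 to 5 kb, 3.06 from 5 to 10 kb and 3.16 from 10 to 20 kb. For isolated peaks it was 3.11 from 20 to 50 kb (n = 235) and 3.38 from 50 kb (n = 72). The value from 50 kb was the highest of the 6 in both replicates, at 3.36 in replicate 1 and 3.40 in replicate 2. Its quartiles, 2.84 and 4.23, overlapped those of every other class.

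**Figure D2:**
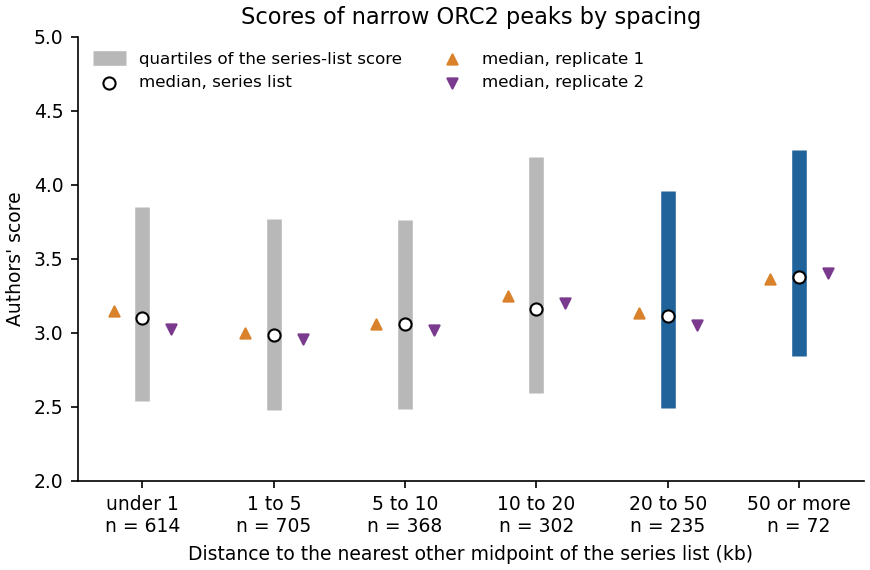
Authors' scores (vertical axis) of narrow ORC2 peaks by the distance to the nearest other midpoint of the series list (horizontal axis, kb); vertical bars run between the quartiles of the series-list score, blue for isolated narrow peaks and grey for the other narrow peaks, circles are series-list medians and triangles the medians of each replicate. The bars of all 6 classes overlap, and the median from 50 kb, 3.38, is the highest.

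The 8 highest-scoring isolated peaks had scores from 8.29 to 14.3 and all spanned less than 200 bp (median 110 bp). Of all 307, 15.3% spanned under 100 bp and 51.8% from 100 to under 200 bp. Over the 307 the score did not rank with width (Spearman's rho -0.02). The highest score was at 3R 26696355 to 26696463, which scored 12.5 in replicate 1 and 16.1 in replicate 2 and ranked seventh in the whole list. On 3L, 15261283 to 15261352 scored 10.6 and 14.7. On 2L, 13642032 to 13642096 scored 12.3 and 12.1, although its replicate 2 peak was only 7 bp wide. The choice by the mean score favours peaks that are high in both libraries. The fourth, 3R at 7947026 to 7947176, scored 8.27 and 12.05, and its neighbours were 100 kb and 115 kb away. It was followed by 2L at 7856489 to 7856670, with 11.01 and 7.89. The other 3 were on 3L. There, 13404251 to 13404360 scored 7.20 and 10.4, 19509766 to 19509892 scored 8.35 and 8.95, and 19439778 to 19439859 scored 6.78 and 9.80. Replicate 2 gave the higher score at 6 of the 8, and at 145 of all 307 (47.2%). No single-replicate peak lay within 10 kb of 7 of the 8, and the exception was the last, which had a replicate 1 peak 579 bp away. Of all 307, 143 (46.6%) had none within 10 kb.

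At the other end, the lowest score was at 3R 12828550 to 12828732, which had 1.78 in replicate 1 and 1.64 in replicate 2. The next were 2L at 6179096 to 6179272 (1.73 and 1.69) and 2L at 12678419 to 12678560 (1.98 and 1.48). The choice by the mean score favours sites that are low in both libraries. These intervals were 183, 177 and 142 bp wide, near the median of 165 bp.

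The median score of isolated peaks differed between arms, but not in the same order in both libraries. In the series list it was 3.09 on 2L, 3.31 on 3L and 3.18 on 3R. Median scores of isolated peaks in replicate 1 were 2.97 on 2L, 3.41 on 3L and 3.13 on 3R. In replicate 2 they were 3.19, 2.98 and 3.39, so that 3L was highest in replicate 1 and lowest in replicate 2.

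The replicate scores of isolated peaks ranked alike. Spearman's rho between the libraries was 0.763 over the 307 sites, which share both libraries and are no replicates of one another, and 0.748 over the other narrow peaks. Widths correlated with a rho of 0.625 across the isolated peaks. The sites were all called in both libraries, so sites that failed in one of them do not enter these values. The log2 ratio of the replicate 2 to the replicate 1 score had a median of -0.03 and an SD of 0.34 across isolated peaks, against -0.04 and 0.34 across the other narrow peaks. The replicate 2 score was the higher at 145 isolated sites, or 47.2% (41.5 to 53.0), beside 46% of all narrow peaks. The scores differed by more than 1.5 times at 21 isolated sites (6.84%), against 7.79% of the other narrow peaks. Of the 21, 13 were higher in replicate 2 and 8 in replicate 1. A difference of more than 2 times was found at 2 isolated sites.

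**Figure D3:**
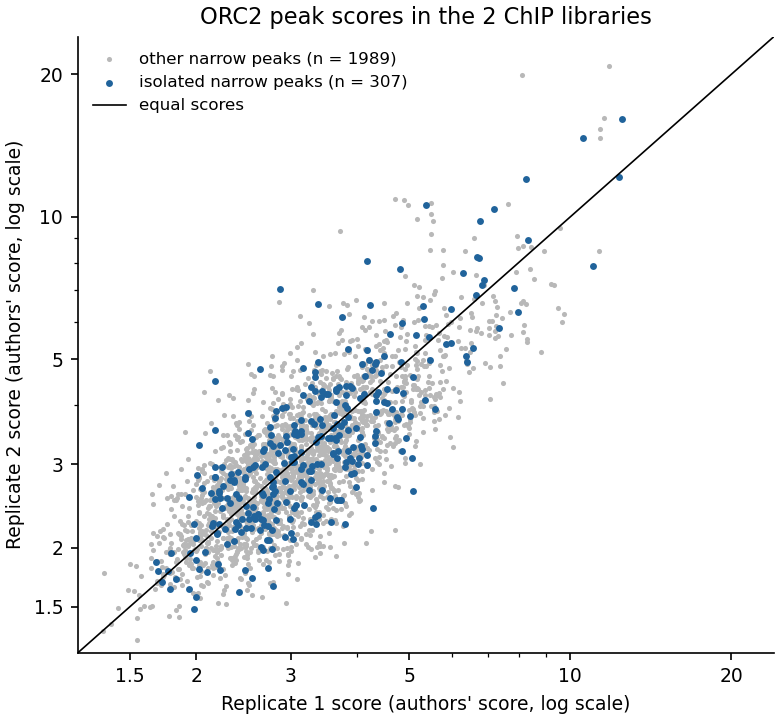
Each point is a narrow ORC2 peak of 2L, 3L or 3R inside the bounds, with the authors' score in replicate 1 (horizontal, log scale) and in replicate 2 (vertical, log scale); blue points are the 307 isolated peaks, grey points the 1989 others, and the line marks equal scores. The isolated peaks lie along the line, mostly within the cloud of the others. In replicate 1 they run from 1.68 to 12.5, and the others reach 11.8. In replicate 2 they run from 1.48 to 16.1, and the others reach 20.8.

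The largest differences between the libraries went both ways. The highest ratio was at 2L 4019906 to 4020014, named above, where replicate 2 scored 2.46 times as high as replicate 1. On 3R, 13275259 to 13275391 scored 2.17 in replicate 1 and 4.49 in replicate 2, and 7520581 to 7520648 scored 5.36 and 10.6. In the other direction, 3L at 8308077 to 8308430 scored 5.09 in replicate 1 and 2.64 in replicate 2. There the replicate 1 peak was 124 bp wide and the replicate 2 peak 341 bp. On 2L, 1362359 to 1362507 scored 4.27 and 2.42, and on 3R, 14839879 to 14840060 scored 3.795 and 2.248.

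Which library scored higher went with the width of the interval. Under 100 bp, the median log2 ratio of replicate 2 to replicate 1 was 0.24 and replicate 2 was higher at 38 of 47 sites. From 100 to under 200 bp the ratio was -0.04 (67 of 159 sites), from 200 to under 300 bp -0.10 (26 of 60) and from 300 bp -0.11 (14 of 41). The other narrow peaks showed the same order, from 0.17 under 100 bp to -0.16 from 300 bp, so the relation was not particular to isolated sites. Replicate 2 peaks were the shorter in all 4 width classes, with medians of 44 bp against 67 bp under 100 bp and 270 bp against 341 bp from 300 bp. The part that depth and the calling threshold of each library played in this was not tested.

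Replicate peaks at isolated sites were centred close together, as they were at the other narrow peaks. At isolated sites their midpoints were a median of 15.5 bp apart, and 267 of the 307 (87.0%) were within 50 bp. The other narrow peaks had a median of 16.5 bp and a share of 85.2%. Overlap reached at least 50% of both peaks at 215 isolated sites, or 70.0% (95% exact interval 64.6 to 75.1), which is near the 67.9% of all narrow peaks. It reached at least 80% at 98 (31.9%), against 29.7% of the other narrow peaks. The replicate 2 peak lay wholly inside the replicate 1 peak at 153 isolated sites (49.8%), against 48.9% of the other narrow peaks. The reverse held at 35 isolated sites, while at 119 each stuck out on one side. The start was identical in both replicates at 4 sites, and the end at 4. Neither library placed the midpoints to one side, since the median signed offset was 0.5 bp.

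Overlap varied with width and score. It reached 50% of both peaks at 51.1% of isolated sites under 100 bp, 75.5% from 100 to under 200 bp, 76.7% from 200 to under 300 bp and 61.0% from 300 bp. The other narrow peaks had the same pattern, with 47.3%, 73.8%, 71.3% and 62.9%. In 4 score classes of 76 or 77 sites each, the share was 54.5% in the lowest (up to 2.55), 67.1% and 80.5% in the next ones and 77.9% in the highest (from 4.02). Median widths of the intervals were 149 bp in the lowest class and 150 bp in the highest. In replicate 2, though, the median width of the peaks was 81 bp in the lowest class and 122 bp in the highest.

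Peaks called in 1 library only were crowded close to the isolated sites. Inside the bounds there were 2173 single-replicate peaks in replicate 1 and 663 in replicate 2, or 31.4 and 9.57 per Mb. Within 1 kb of an isolated midpoint their density was 87.9 per Mb in replicate 1 (54 peaks) and 34.2 per Mb in replicate 2 (21 peaks). These are 2.80 and 3.57 times the density over the arms (mean 3.19 ± 0.545, SD, n = 2). From 1 to 2 kb the ratios fell to 1.87 for replicate 1 and 1.36 for replicate 2. Beyond that the isolated peaks had fewer such neighbours than the arms on average, with ratios of 0.889 and 0.851 from 2 to 10 kb and 0.8 and 0.698 from 10 to 20 kb. Around the 33 isolated wide peaks the ratios were 1.09 and 0.990 from 2 to 10 kb, and 0.821 and 0.633 from 10 to 20 kb. The rule takes sites in stretches poor in series-list peaks, while the mean of the arms includes dense stretches. The low outer ratios therefore only describe where the selected sites lie.

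Narrow peaks that were not isolated had the same crowding within 1 kb, and a slower decline. Around them the ratios to the arms within 1 kb were 3.06 in replicate 1 and 3.52 in replicate 2, close to those of isolated peaks. From 1 to 2 kb they were 2.64 and 2.63, from 2 to 10 kb 1.88 and 1.83, and from 10 to 20 kb 1.61 and 1.45. These are averages per narrow peak, and a single-replicate peak was counted once for each narrow peak near it. Windows of close narrow peaks overlap, so replicate 1 gave 4596 counts within 20 kb of other narrow peaks from 2173 single-replicate peaks inside the bounds. By these ratios the isolated and the other narrow peaks differed mainly from 1 kb outwards. The rule itself keeps peaks of the series list away from isolated sites over the whole 20 kb, also within 1 kb. Neighbouring peaks of a replicate list were never closer than 200 bp, so a single-replicate peak could not stand nearer than that to the isolated site's own peak of the same library.

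**Figure D4:**
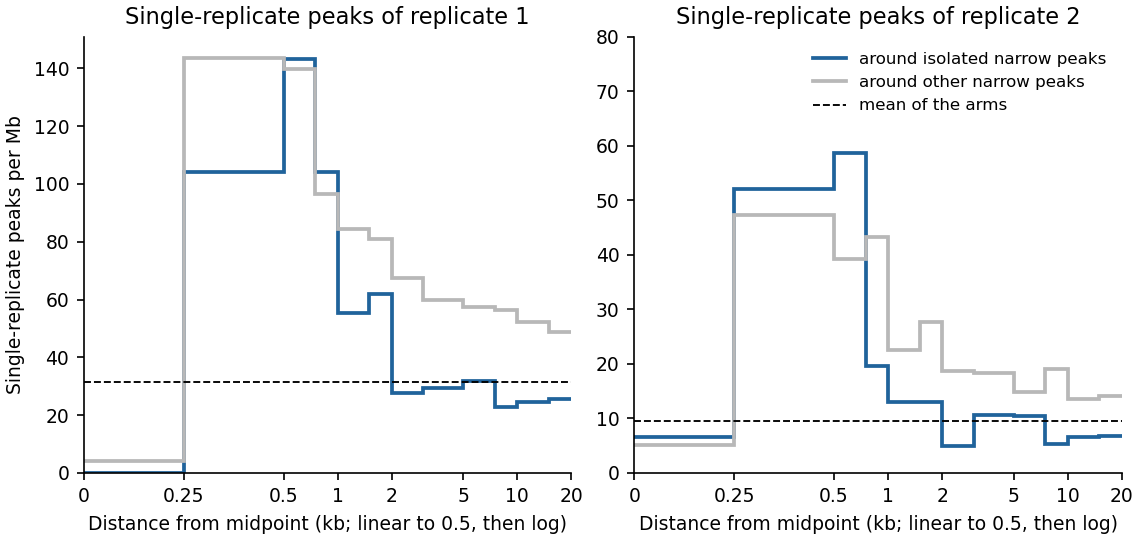
Density of single-replicate peaks (per Mb) by distance from the midpoint of isolated narrow peaks (blue) and of the other narrow peaks (grey), in replicate 1 (left) and replicate 2 (right); the dashed line is the mean of the arms, 31.4 and 9.57 per Mb. Around isolated peaks the density stands above the mean from 0.25 to 2 kb and mostly below it farther out. Around the other narrow peaks it stays above the mean from 0.25 to 20 kb. A single-replicate peak counts once for each narrow peak near it.

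As a share of sites, 58 of the 307 isolated peaks (18.9%, 14.7 to 23.7) had a single-replicate peak within 1 kb and 123 (40.1%) within 5 kb. Of the other narrow peaks 22.5% and 57.1% did. Within 10 kb 164 had one (53.4%, 47.7 to 59.1), beside 71.6% of all narrow peaks. Of these 164, 146 had a replicate 1 peak, 62 a replicate 2 peak and 44 had both. The replicate 1 list holds more single-replicate peaks throughout, and the part of depth in that was not tested. The single-replicate peaks within 1 kb of an isolated site were like those elsewhere on the arms. Their median score was 2.31 in replicate 1 and 2.91 in replicate 2, against 2.49 and 2.71 over the arms, and their median widths were 65.5 and 29 bp against 59 and 29 bp. In replicate 1, 39 of the 54 scored below the isolated peak beside them in the same library, and in replicate 2 11 of the 21 did. The isolated peaks had medians of 3.18 and 3.16, above those of single-replicate peaks over the arms. These counts therefore do not set the peaks within 1 kb apart.

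The most single-replicate peaks were counted within 10 kb of 3R 26214341 to 26214519, which scored 2.54 in replicate 1 and 3.39 in replicate 2. It had 5 from replicate 1 and 2 from replicate 2, 4 of them within 1 kb. It was followed by 3L at 22180581 to 22180773 (scores 3.42 and 3.01), with 4 and 2. Next came 2L at 9494022 to 9494160 (2.35 and 2.78), with 4 and 1, tied at 5 in all with 3R at 13875037 to 13875194 and 3L at 11199060 to 11199218. Each of these sites was therefore isolated only with respect to peaks found in both libraries.

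Near some isolated sites, single-replicate peaks of both libraries lay close together without a shared base. Single-replicate peaks of the 2 libraries faced each other at less than 200 bp in 22 places within 20 kb of an isolated peak, and 20 isolated peaks (6.51%) had such a pair, against 13% of the other narrow peaks. The median gap between the 2 peaks of a pair was 26.5 bp. At 6 isolated sites the pair lay within 1 kb. Beside 3L 6210868 to 6211205, replicate 1 had a peak at 6211733 to 6211765 and replicate 2 one at 6211712 to 6211731, 1 bp apart. Next to 3L 11581193 to 11581264, replicate 1 had a peak at 11580833 to 11580913 and replicate 2 one at 11580787 to 11580829, with 3 bp between them. A list that allowed a small gap would have joined these pairs and left such sites with a neighbour. The pairs named were chosen after their values were seen.

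Scores were also compared by what lay around each site. The 93 sites that stayed alone in both libraries had a median of 3.35 (quartiles 2.65 and 4.51), with 3.37 in replicate 1 and 3.30 in replicate 2, and 19 of them (20.4%) were in the highest 10% of narrow peaks. The 156 sites with a single-replicate peak within 20 kb but none within 1 kb had a median of 3.10 (2.49 and 3.83), and 13 of them (8.33%) were in that range. For the 58 with such a peak within 1 kb the median was 3.36 (2.58 and 3.96) and the count was 6 (10.3%). The quartiles of all 3 groups overlapped. The share of sites whose replicate peaks overlapped by 50% was 69.9%, 68.6% and 74.1%, and the median width was 165, 171 and 155 bp, so the groups were alike in both. The sites that stayed alone were also farther from other peaks of the series list, with a median of 38.9 kb against 30.5 and 30.4 kb.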

How the data were processed

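The authors' deposited files are 1 peak list for each ORC2 ChIP library and 1 for the series. PeakSeq is the peak caller that the files' source field names, and FlyBase release 5 is the build, per the file headers. The deposited score is the authors' value for each peak. Neither the aligner nor the thresholds, the depth or the role of the input are given here. The lists were read with pandas 2.3.3 and numpy 2.4.6 in Python 3.11.15; intervals came from scipy 1.17.1 and plots from matplotlib 3.10.9. Peaks were shared between libraries if they had at least 1 bp in common. Density is per Mb between the first and last peak of any list inside the bounds, 69.3 Mb in all. Intervals on shares are Clopper-Pearson 95% intervals, which take each peak as independent. No test was run, since the choice of peaks used both libraries. Regions were named by extremes of score, width, spacing, replicate ratio and single-replicate neighbours, and by nearness to the limits. The regions, lists and alternatives were chosen with earlier results of these data known. The selection and counting code was checked on simulated lists. The gene table at hand is on release 6, so it was not used.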

Additional observations from a re-analysis of the deposited data

How the results depend on the processing

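The number of isolated narrow peaks, 307, became 609 with a spacing of 10 kb, 173 with 30 kb and 93 when single-replicate peaks counted as neighbours. Their median score, 3.18, was 3.23 for widths under 300 bp, 3.38 with 30 kb, 3.35 when single-replicate peaks counted, and 2.89 to 3.17 when the rule was applied to 1 replicate list alone. The difference in median score from other narrow peaks, 0.107, stayed positive in every setting tried. It was 0.168 under 300 bp, 0.310 with 30 kb, 0.272 when single-replicate peaks counted and 0.112 to 0.184 in 1 replicate list alone. Replicate peaks overlapped by 80% at 31.9% of the sites and had midpoints within 50 bp at 87.0%. Spearman's rho between the replicates moved by less than 0.05 in every setting tried. The density of single-replicate peaks within 10 kb relative to the arms, 1.18, depended on the window. It was 1.5 within 5 kb, 0.977 within 20 kb and 2.98 within 1 kb, a window added after the data were seen. It was 1.19 for widths under 300 bp, 1.17 under 500 bp, 1.31 with a spacing of 10 kb, 1.07 with 30 kb, 1.18 between facing edges, 1.16 with partners matched within 500 bp, and 1.17 to 1.18 in 1 replicate alone. With single-replicate peaks counted as neighbours it is 0 by construction and has no value here. The cause of these changes was not tested, beyond the numbers of peaks that each setting admits. No paired analysis was possible because both ChIP libraries form 1 group and no list of the input was used. Depth is unknown, and the limit it sets on the calls of each library was not tested.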
